A study of Mus musculus with 3 samples.

Results

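The hypothalamus (HY) spots are the capture spots of 3 mouse brain sections that carry the brain region label HY in the deposited table. They number 886 of 8549 spots, of which CON holds 300, RES 292 and SUS 294. Spatial transcriptomics (ST) was run with 10x Genomics Visium on coronal sections of the left hemisphere, 10 μm thick, 1 from each of 3 male C57BL/6J mice aged 8 weeks. The RES (resilient) and SUS (susceptible) mice had gone through 10 days of chronic social defeat stress (CSDS), in which a mouse is attacked each day by a larger CD-1 male and then lives beside it behind a partition, while the CON (control) mouse had a short daily contact with non-aggressive C57BL/6 mice and was then kept behind the same kind of partition. RES and SUS were told apart by the social interaction ratio, above 1 in RES and below 1 in SUS, and brains were taken 1.5 h after the last exposure. The section labels mark all 3 mice as WT (wild type), and no drug, transgene or deletion is named for any group. Each condition is 1 section of 1 mouse, so a difference between sections cannot be told apart from one between animals, slides or section levels, and no test between conditions was made.

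The hypothalamus lies at the base of the brain on both sides of the third ventricle, and its nuclei link the nervous system to hormone release, feeding, temperature and sleep. Neurons of its paraventricular nucleus make corticotropin-releasing hormone (CRH), the first signal of the hypothalamic-pituitary-adrenal axis that raises glucocorticoids in stress. Medial nuclei face the ventricle, while the lateral hypothalamus is crossed by fibre bundles. The thalamus (TH), just above it, relays sensory and motor signals to the cortex and is taken here as the region to compare with.

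Each spot binds the mRNA of the tissue over it and can hold several cells of different types or parts of cells. A unique molecular identifier (UMI) marks 1 captured mRNA molecule, so UMIs per spot measure how much RNA was caught, and genes per spot counts the genes seen at least once in it. Fewer cells in a spot and less RNA per cell cannot be told apart. Of the 3 percentages the authors deposited, percent.mito is the part of a spot's UMIs on mitochondrial genes, which code for subunits of the respiratory chain. The part on genes of ribosomal proteins is percent.rb, and the part on genes of red blood cells, such as those of the haemoglobin chains, is percent.redcell. Counts per gene were not analysed here, so no HY marker gene could be read and only the place of the labelled spots was described. Intervals of medians are 95% order-statistic intervals and cover the spread between spots of 1 section. Adjacent spots resemble each other, so these intervals are too narrow. HY was compared with TH within each section, and the exact sign-flip permutation test over the 3 sections (two-sided) cannot give a p below 0.25.

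The HY spots formed 1 compact field at the ventral and medial edge of each section. Of 5077 links from an HY spot to an adjacent listed spot, 4804 (94.6%) led to another HY spot. The CON, RES and SUS sections had 95.6%, 94.3% and 93.9%. A link between 2 HY spots is counted from both ends, so no interval is given. The mean place of HY lay below that of TH by 2013 μm in CON, 1848 μm in RES and 1768 μm in SUS, and 87.3%, 83.2% and 87.8% of HY spots lay below every TH spot. Among the grid rows that hold HY, its medial end was the medial end of the listed spots in each section. HY started the row in 18 of 25 such rows in CON, 20 of 27 in RES and 22 of 27 in SUS. From its medial end the field reached 1800 μm to the lateral side in CON, 2150 μm in RES and 2300 μm in SUS. HY touched TH (22, 28 and 28 spots in CON, RES and SUS), fiber tracts (FB; 17, 18 and 21 spots) and, outside CON, the cerebral nuclei (CNU; 4 spots in RES and 4 in SUS). No HY spot touched Isocortex or hippocampus. This place, ventral to the thalamus and beside the midline, is that of the hypothalamus. The study assigned its regions by aligning the sections with the Allen Mouse Brain Atlas, so place is no independent check of the label.

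HY made up nearly the same part of each section, with 10.4% of the CON spots (exact interval 9.32 to 11.6), 10.3% of the RES spots (9.23 to 11.5) and 10.4% of the SUS spots (9.26 to 11.5). Its part of the UMIs differed more, 12.8% in CON, 10.6% in RES and 13.1% in SUS. The sums were 4787870, 3291388 and 4597480 UMIs. The same slide place can fall in HY of more than 1 section: 61 barcodes were HY in all 3 sections, out of 569 used in any. A barcode names a place on the slide, so these are not shared cells. In CON, 7 HY spots held fewer than 1000 UMIs, from 496 to 787, of which 6 were in the lateral tertile of the region. No HY spot of RES or SUS was that shallow.

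HY was one of the regions with the most captured RNA. Among the 8 larger brain regions its median UMIs per spot ranked second in CON and RES, after Isocortex, and first in SUS. The lower and upper quartiles of UMIs were 11706 and 21114 in CON. They were 8510 and 13571 for RES and 11121 and 19473 for SUS. The RES section stood apart, since its upper quartile lay below the medians of 15928.5 UMIs in CON and 15228.5 in SUS. Against TH, the median of HY was 1.44 times as high in CON (interval 1.34 to 1.58). For RES the ratio was 1.05 (0.953 to 1.16) and for SUS 1.22 (1.11 to 1.34). The ratio was above 1 in 3 of 3 sections, with a mean of 1.23 ± 0.195 (SD, n = 3 sections; log2 0.29 ± 0.23; exact sign-flip p = 0.25, adjusted over 6 measures p = 0.5). In RES the interval holds 1, so no difference in UMIs could be seen in that section.

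Over all spots of a section, the median was 12912 UMIs in CON, 10054.5 for RES and 10947.5 for SUS. In TH the RES to CON ratio was 0.949 (0.886 to 1.02), against 0.692 in HY (0.612 to 0.768). After division by the median of all spots of the section, the HY ratio moved to 0.889 for RES to CON and, for SUS to CON, from 0.956 to 1.13, which turns the order of SUS and CON. Genes per spot followed UMIs, with medians of 5181.5 in CON, 4221 in RES and 5074.5 in SUS. Across spots the rank correlation of UMIs with genes was 0.988 in CON (n = 300 spots), 0.986 in RES (n = 292) and 0.989 in SUS (n = 294), given as a description, since both numbers come from the same molecules. The HY to TH ratio of genes was 1.20, 1.002 and 1.09 in CON, RES and SUS (mean 1.10 ± 0.102, SD, n = 3; exact sign-flip p = 0.25, adjusted p = 0.5).

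At matched depth the 2 regions held nearly the same number of genes. Among spots with 10000 to 15000 UMIs, the HY median was 4600.5 genes in CON (n = 74 spots), 4510 in RES (n = 133) and 4503.5 in SUS (n = 96). TH had 4501.5, 4576 and 4629 genes. The HY to TH ratio was 1.02 (interval 0.979 to 1.05), 0.986 (0.956 to 1.02) and 0.973 (0.920 to 1.01), above 1 in 1 of 3 sections (exact sign-flip p = 0.75). In CON the HY spots of that window were deeper than the TH spots, with medians of 13179.5 and 11824 UMIs. Matching more finely, with equal weight to each bin of 1000 UMIs, put HY below TH in every section, by ratios of 0.984 in CON (16 bins), 0.990 in RES (14 bins) and 0.979 in SUS (19 bins). The mean log2 ratio was then -0.02 (exact sign-flip p = 0.25). Between sections, the finely matched HY spots differed by ratios of 0.996 for RES to CON and 1.01 for SUS to CON. For SUS to RES the ratio was 0.983, with SUS higher in 4 of 14 bins.

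**Figure D1:**
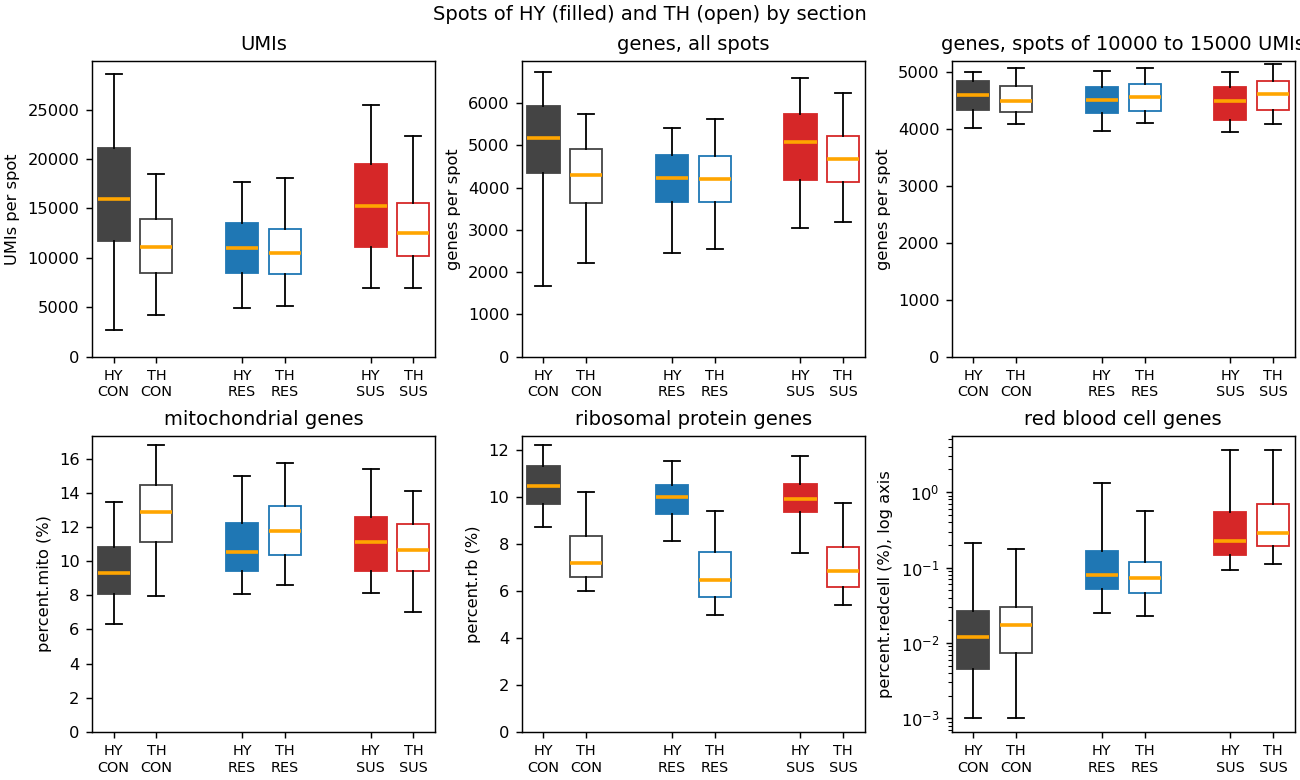
Spots of HY (filled boxes) and TH (open boxes) in the CON, RES and SUS sections: UMIs per spot, genes per spot, genes per spot among spots of 10000 to 15000 UMIs, and percent.mito, percent.rb and percent.redcell. Boxes span the quartiles, the orange line is the median and whiskers run from the 5th to the 95th percentile; the red blood cell axis is logarithmic, with values under 0.001% drawn at 0.001%. The boxes of percent.rb for HY and TH do not overlap in any section, whereas those of matched genes nearly coincide.

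Ribosomal protein genes took a larger part of the UMIs in HY than in TH in each section. These genes code for the protein parts of the ribosome. Median percent.rb of HY was 10.5% in CON (interval 10.3 to 10.7). RES had 9.99% (9.83 to 10.2) and SUS 9.94% (9.79 to 10.1). In TH it was 7.20%, 6.47% and 6.87%. The difference was 3.26 percentage points in CON, 3.52 in RES and 3.08 in SUS, with a mean of 3.29 ± 0.224 (SD, n = 3), higher in HY in 3 of 3 sections (exact sign-flip p = 0.25, the smallest that 3 sections allow; adjusted p = 0.5). Of all pairs of 1 HY and 1 TH spot from the same section, the HY spot was higher in 94.8%, 95.5% and 93.0%.

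The difference was also present at matched depth. In bins of 1000 UMIs it was 3.06, 3.21 and 2.89 percentage points, and HY was higher in 16 of 16 bins in CON, 14 of 14 in RES and 19 of 19 in SUS. Among the 8 larger regions HY ranked second for percent.rb in each section, below FB, whose medians were 10.9%, 11.2% and 12.0%. Between sections HY varied by 0.519 percentage points, from 10.5% in CON to 9.94% in SUS.

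Across the border the percentage differed along the thalamic side. HY spots next to TH held 10.5% in CON, 9.52% in RES and 9.70% in SUS, close to the whole region. TH spots next to HY (23, 26 and 28 spots) held 10.1%, 9.57% and 9.39%, much nearer to HY than to the TH median. One spot further into TH the medians were 9.04%, 8.43% and 8.33%. At 400 to 500 μm they were 7.49%, 6.59% and 6.60%, and beyond that 7.01%, 6.20% and 6.63%. So the thalamic side graded over some 500 μm, while within HY the lowest ring of spots had a median of 9.22%. The study drew its regions from histology, the Allen Mouse Brain Atlas and marker genes, so the place of the border is itself partly read from expression. Whether the border is off by some spots was not tested.

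**Figure D2:**
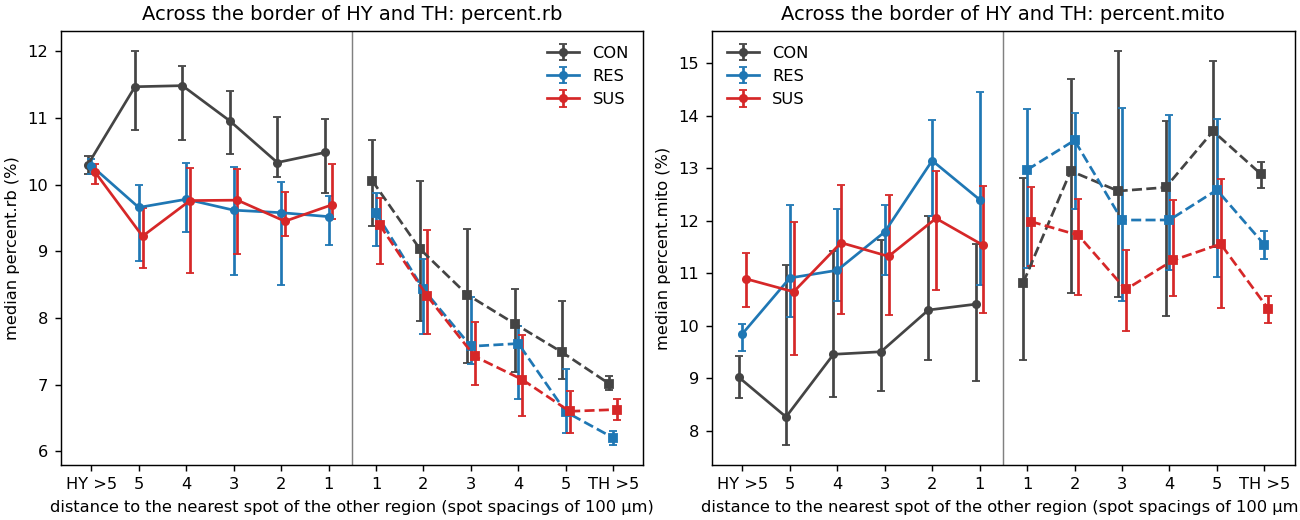
Median percent.rb (left) and percent.mito (right) of spots by distance to the nearest spot of the other region, in spot spacings of 100 μm, with HY left of the grey line (circles) and TH right of it (squares), for CON, RES and SUS; bars are 95% order-statistic intervals. On the TH side percent.rb goes from 10.1% to 7.49% in CON within 5 spacings. It goes from 9.57% to 6.59% in RES and from 9.39% to 6.60% in SUS. On that side percent.mito has no such slope in common. On the HY side median percent.mito next to TH is 10.4%, 12.4% and 11.5% in CON, RES and SUS. Beyond 5 spacings it is 9.03%, 9.85% and 10.9%.

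Mitochondrial genes differed between sections in opposite directions in HY and in most of the other regions. Median percent.mito of HY was 9.32% in CON (interval 9.03 to 9.60). RES had 10.5% (10.3 to 10.9) and SUS 11.1% (10.7 to 11.5). In TH the order was reversed: CON had 12.9%, RES 11.8% and SUS 10.7%. In HY, RES minus CON was 1.23 percentage points (0.725 to 1.87) and SUS minus CON 1.79 (1.12 to 2.47). In TH they were -1.10 and -2.21. After subtracting the change of all spots outside the region they were 2.40 and 4.82 in HY and -0.437 and 0.249 in TH, so TH then had the sign of HY for SUS. In the 10 other brain regions, 3 of which are small, SUS was below CON in 10 of 10, with differences from -3.92 in Isocortex to -1.14 in FB. RES was below CON in 9 of 10, and FB was higher by 0.172. HY ranked number 5 of the 8 larger regions in CON, number 2 in RES and number 1 in SUS. These are 3 sections and not replicates, and whether the regions differ in their response to CSDS could not be tested.

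**Figure D3:**
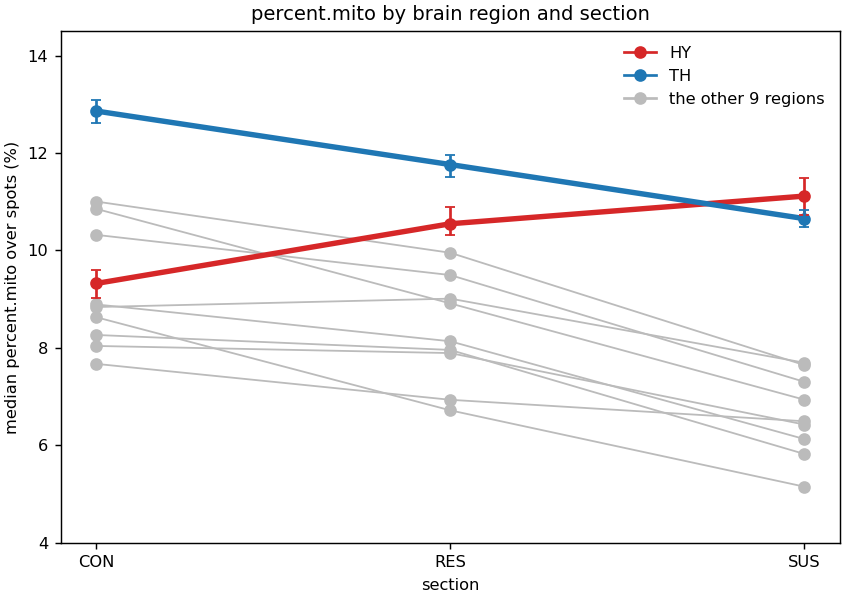
Median percent.mito over spots in each of 11 brain regions, for the CON, RES and SUS sections, with HY in red, TH in blue and the other 9 regions in grey; bars on HY and TH are 95% order-statistic intervals. From CON to SUS, HY goes from 9.32% to 11.1% while the lines of the 10 other regions slope down.

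Among HY spots of matched depth, the difference of RES from CON was close to 0 and that of SUS from CON was not. Within HY, spots with fewer UMIs had a higher percent.mito, with rank correlations of -0.705 in CON (n = 300 spots), -0.324 in RES (n = 292) and -0.352 in SUS (n = 294), which are descriptions over spots of 1 section. Among spots of 10000 to 15000 UMIs, the HY medians were 10.5% in CON, 10.4% in RES and 12.0% in SUS. There RES minus CON was -0.0707 (interval -0.794 to 0.596) and SUS minus CON 1.55 (0.556 to 2.48). With equal weight to bins of 1000 UMIs the HY differences were 0.314, with RES higher in 6 of 14 bins, and 1.30, with SUS higher in 16 of 17 bins. In TH they were -0.780 and -1.11 in such bins, and -1.59 and -2.17 among spots of 10000 to 15000 UMIs. By place, RES minus CON was 1.29, 1.29 and 1.26 in the medial, middle and lateral tertiles of HY. SUS minus CON was 1.19, 2.96 and 0.483 in them.

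The distance of HY to TH in percent.mito therefore varied from section to section. HY minus TH was -3.54 percentage points in CON, -1.22 in RES and 0.462 in SUS, where the interval (-0.118 to 1.01) holds 0. The mean was -1.43 ± 2.01 (SD, n = 3; exact sign-flip p = 0.5, adjusted p = 0.75). HY was higher in 1 of 3 sections. In bins of 1000 UMIs the differences were -1.59, -1.06 and 0.770.

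Red blood cell genes were scarce in CON and more abundant in both other sections. The median percent.redcell of HY was 0.0121% in CON (interval 0.0103 to 0.0138). RES spots had 0.0807% (0.0733 to 0.0903) and SUS spots 0.223% (0.201 to 0.262). This is 6.65 times as high in RES as in CON and 18.4 times in SUS, beside 4.21 and 17.0 times in TH. At the median depth of CON, 1 UMI of the deposited total would be 0.00628%, so the CON median is near the smallest value that could be seen and the ratios to it are coarse. A value above 0 was seen in 81.0% of HY spots in CON (exact interval 76.1 to 85.3), 98.3% in RES and 100% in SUS, beside 82.0%, 99.5% and 100% of TH spots. Spots above 1% numbered 5 of 300 in CON (1.67%), 19 of 292 in RES (6.51%) and 51 of 294 in SUS (17.3%, interval 13.2 to 22.2). TH had 1.62%, 2.85% and 20.1%.

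HY and TH did not differ in one direction in this measure. HY minus TH was -0.00489 percentage points in CON, 0.00900 in RES and -0.0663 in SUS (exact sign-flip p = 0.75). Within HY, the spots above 1% lay to the lateral side, with 4 of 5 in the lateral tertile in CON, 10 of 19 in RES and 29 of 51 in SUS, while 0, 3 and 10 were in the medial tertile. They were shallower than the others, with medians of 7779 against 11279 UMIs in RES and 11736 against 15929 in SUS. In CON the medians were 13384 and 15959 UMIs. Median percent.mito of the spots above 1% was 8.65% in CON, 11.8% in RES and 11.1% in SUS, beside 9.34%, 10.5% and 11.1% for the spots up to 1%, with no common direction. In SUS the ventral part of the lateral tertile was highest, with a median of 2.10% over 17 spots, while in RES it had 0.203% and the part just above it 0.210%. Leaving out the spots above 1% left the percent.mito difference from CON in HY at 1.15 percentage points for RES and 1.78 for SUS.

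On the lateral side of HY, median percent.mito was higher than on the medial side in each section, and UMIs were lower in CON and SUS. In RES the UMIs of both sides were close. HY spots were cut into tertiles of equal number across the slide, along the grid axis on which the mean places of the retrosplenial and auditory cortex lie farther apart, medial being the retrosplenial end. From medial to middle to lateral, median UMIs in CON were 17821, 18841.5 and 9927. For RES they were 11091, 11689 and 10354, and for SUS 18336, 15604 and 11580.5. The lateral to medial ratio was 0.557 in CON, 0.934 in RES and 0.632 in SUS, below 1 in 3 of 3 sections (mean log2 -0.54 ± 0.39, SD, n = 3; exact sign-flip p = 0.25, adjusted p = 0.3). In RES the intervals of the medial tertile (9591 to 12239) and the lateral tertile (9198 to 11600) overlapped, and the rank correlation of UMIs with distance was -0.0441 (n = 292 spots). Among grid rows that hold spots of all tertiles, the ratios were 0.679 in CON, 1.03 for RES and 0.692 for SUS, so that RES turned and the mean log2 was -0.35 (exact sign-flip p = 0.5). The ratio of the tertiles was lowest in CON, where the 33 spots from 1500 μm on had a median of 3168 UMIs (interval 1494 to 5114) and 1837 genes. In the bin from 1500 to 2000 μm, RES had 8536 UMIs over 34 spots and SUS 11158 over 31 spots. TH had a shallower slope in CON and SUS, with ratios of 0.700 and 0.842, and a steeper one in RES, with 0.848, so the slope of HY was not set apart from that of TH (difference of log2 ratios -0.20 ± 0.30, SD, n = 3; exact sign-flip p = 0.5).

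Genes per spot had lateral to medial ratios of 0.698, 0.910 and 0.753, and in the rows with all tertiles 0.8004, 1.01 and 0.803 (mean log2 -0.21, exact sign-flip p = 0.5). A smaller difference was seen at matched depth. Among spots of 10000 to 15000 UMIs the medial tertile held medians of 4708, 4678 and 4703 genes in CON, RES and SUS, and the lateral tertile 4423.5, 4385 and 4258. The ratios were 0.940, 0.937 and 0.905, below 1 in 3 of 3 sections (mean log2 -0.11 ± 0.03, SD, n = 3; exact sign-flip p = 0.25, adjusted p = 0.3). In bins of 1000 UMIs they were 0.970 (3 bins), 0.960 (7 bins) and 0.959 (4 bins), with the lateral tertile lower in every bin. TH showed the same direction, with ratios of 0.954, 0.950 and 0.972 in the window.

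Median percent.mito from medial to lateral was 8.13%, 9.05% and 11.3% in CON. It was 9.42%, 10.3% and 12.6% for RES, and 9.32%, 12.0% and 11.8% for SUS. The lateral minus medial difference was 3.20, 3.18 and 2.50 percentage points, with a mean of 2.96 ± 0.398 (SD, n = 3), higher on the lateral side in 3 of 3 sections (exact sign-flip p = 0.25, adjusted p = 0.3). In SUS the step came early, at about 500 μm, with 9.21% before it and 12.3% in the next 500 μm. In CON and RES the highest medians, 11.7% and 13.9%, were those of the bin from 1500 to 2000 μm. At matched depth the difference was 0.938 percentage points in CON (3 bins), 3.10 in RES (7 bins) and 1.66 in SUS (4 bins). TH differed by 1.72, 1.94 and -0.579 percentage points, and HY minus TH was 1.93 ± 1.002 (SD, n = 3; exact sign-flip p = 0.25, adjusted p = 0.5).

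The lateral minus medial difference of percent.rb was 0.0957 percentage points in CON, -1.05 in RES and -0.555 in SUS (exact sign-flip p = 0.5). In RES its median was 8.51% in the bin from 1500 to 2000 μm, which was still above the TH median. For percent.redcell the lateral side was higher by 0.00914, 0.0527 and 0.126 percentage points (3 of 3 sections, exact sign-flip p = 0.25, adjusted p = 0.3). As ratios to the medial side these are 2.19, 1.74 and 1.64, beside 1.39, 1.34 and 1.27 for percent.mito. The size of the difference rests on the summary: between means it was 0.161, 0.336 and 0.836 percentage points. Its mean over sections was 0.0626 with medians and 0.444 with means, and 0.0309 with medians without SUS.

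**Figure D4:**
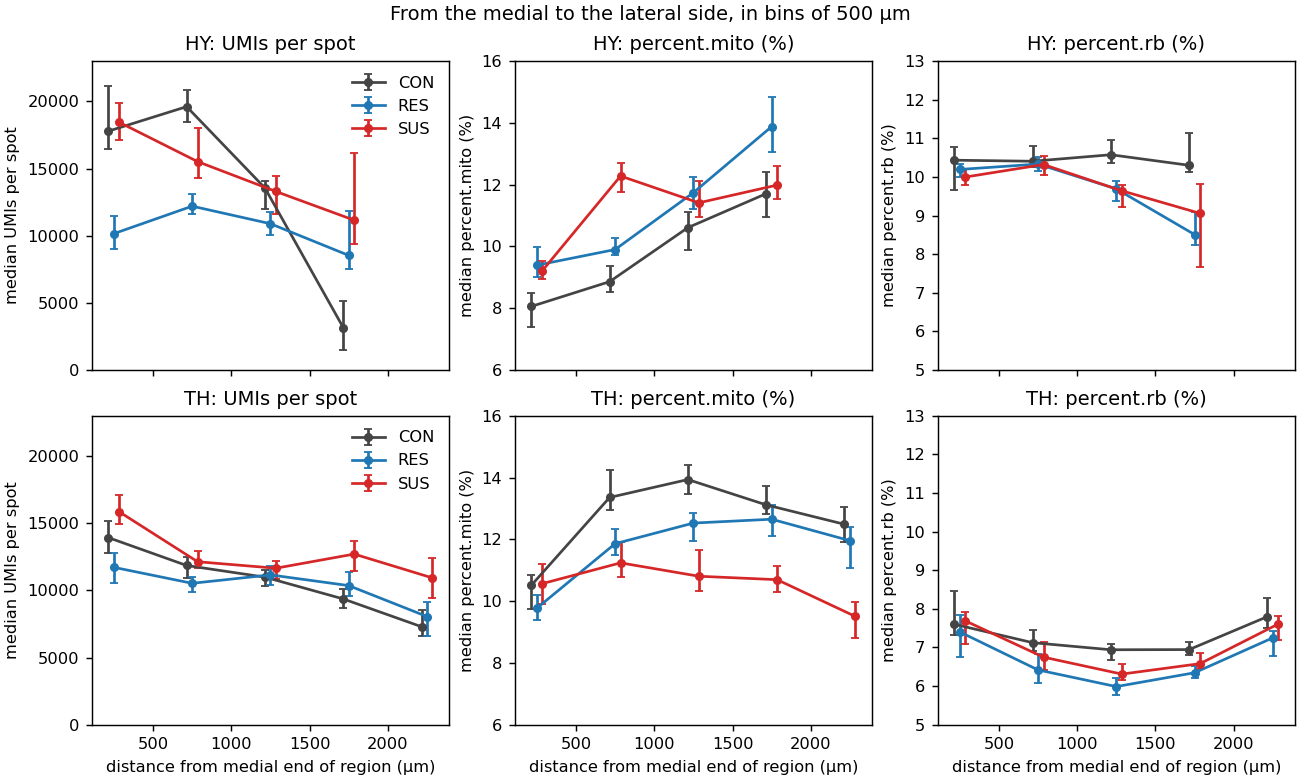
Medians per bin of 500 μm from the medial end of HY (top) and TH (bottom) for UMIs per spot, percent.mito and percent.rb, by section, with 95% order-statistic intervals; bins with 5 or fewer spots are left out. In HY the last bin of CON is lowest in UMIs (3168), and percent.mito goes from 8.06% to 11.7% in CON and from 9.39% to 13.9% in RES, while SUS goes from 9.21% to 12.3% after the first bin.

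The lateral side of HY reached further dorsally than the rest, as a strip below TH. Of the 100 lateral spots in CON, 47 lay in the dorsal tertile of HY, against 19 in the ventral tertile. Those 47 spots had a median of 4738 UMIs, the lowest of the 9 fields made by both cuts in any section, and the 42 ventral medial spots of CON had the highest, 22455.5 UMIs. In SUS the ventral medial field was also the highest, with 20971 UMIs, while in RES it was the centre, with 13534. The ventral to dorsal ratio of UMIs was 1.59, 1.23 and 1.36 in CON, RES and SUS. In TH these ratios were 0.802, 0.790 and 0.931, below 1 in 3 of 3. Genes of spots with 10000 to 15000 UMIs were also higher in the ventral tertile of HY, by ratios of 1.10, 1.07 and 1.07, whereas ventral minus dorsal percent.mito was -1.58, -2.74 and -0.772 percentage points. For each of these 3 measures the direction in HY was shared by 3 of 3 sections (exact sign-flip p = 0.25, adjusted p = 0.375).

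HY spots at the borders had lower median UMIs than those inside the region. Spots with 6 HY neighbours had medians of 17244, 11962 and 16684 UMIs in CON, RES and SUS. Spots touching FB, which is white matter, had 4954, 7714.5 and 7984. Spots touching TH had 12128, 7626.5 and 10974.5. Spots at the tissue edge, with fewer than 6 listed neighbours, had 14527, 7952.5 and 12176.5, and their percent.mito was 8.30%, 9.51% and 9.12%. FB spots themselves had the lowest median UMIs of the 8 larger regions in each section. Neighbouring HY spots resembled each other: the rank correlation of a spot's UMIs with the mean of its adjacent HY spots was 0.782 in CON (n = 300 spots), 0.670 in RES (n = 292) and 0.683 in SUS (n = 294), and for percent.mito 0.701, 0.835 and 0.602. These are descriptions of how smooth the maps are.

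**Figure D5:**
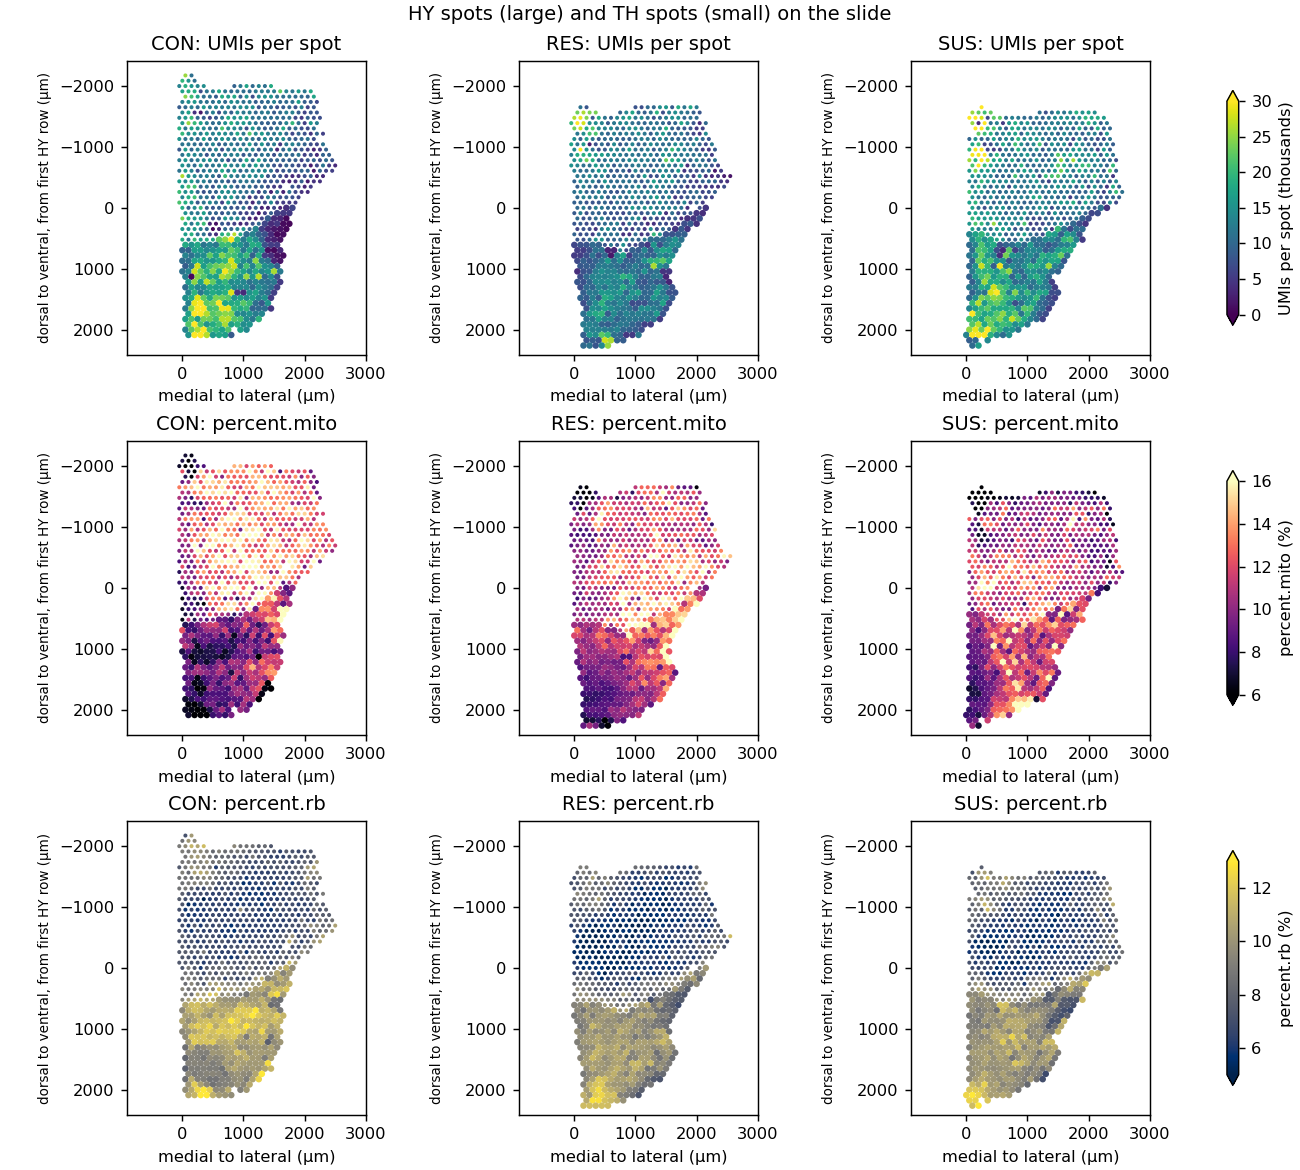
Maps of HY spots (large points) and TH spots (small points) in the CON, RES and SUS sections, coloured by UMIs per spot (top), percent.mito (middle) and percent.rb (bottom), with distances in μm from the medial and the dorsal end of HY. HY stands out from TH in percent.rb in all 3 sections, the dorsal lateral strip of CON is the shallowest part (median 4738 UMIs), and percent.mito is lowest along the medial side (8.13%, 9.42% and 9.32% in the medial tertiles).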

How the data were processed

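Reads were processed by the authors in ST Pipeline against mm10, and Seurat was used to drop genes seen rarely and spots with few UMIs. The labels also name bcl2fastq, cutadapt and Space Ranger 1.0.0. The deposited table holds UMI counts per spot (no normalization), genes per spot, and the authors' percent.mito, percent.rb and percent.redcell, in percent of UMIs. The sources used here do not state their gene lists. The product of each with the deposited UMI total was whole (within 0.001) in 0.226% of HY spots, so they rest on another total and were compared only as percentages. Columns of other samples numbered 0. Image scale factors and counts per gene were not used here. The cluster labels gave the places of the retrosplenial and auditory cortex, which set the medial to lateral axis.

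Spots were joined to their slide places by section and barcode. The total UMIs were 37536349 in CON, 31196847 in RES and 34979160 in SUS. Spot spacing was taken as 100 μm. Intervals of a ratio or difference combine the bounds of both medians. Shares have Clopper-Pearson intervals, which cover counting error only. Exact sign-flip tests ran over the 3 sections, with Benjamini-Hochberg adjustment over 6 measures. The dorsal to ventral comparison, planned as a description, was tested the same way. Scripts were tested on simulated data. No gene was named by a rule, since no counts per gene were used. The members, comparisons and measures were chosen with earlier results of these data known, and matching in bins of 1000 UMIs (at least 5 spots on both sides) was added for the percentages and for the medial to lateral comparison after seeing the data. The tools were matplotlib 3.10.9, scipy 1.17.1, pandas 2.3.3, numpy 2.4.6 and Python 3.11.15.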

Additional observations from a re-analysis of the deposited data

Results flagged for a closer look

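The change of percent.mito between sections had opposite signs in HY and TH. RES minus CON was 1.23 percentage points in HY and -1.10 in TH, and SUS minus CON was 1.79 in HY and -2.21 in TH. With 1 section per condition the difference between the regions was not tested. At 10000 to 15000 UMIs the HY value for RES was -0.0707, and the one for SUS was 1.55. The TH values there were -1.59 and -2.17. Relative to the change of all spots outside the region, RES minus CON was 2.40 in HY and -0.437 in TH, and SUS minus CON was 4.82 in HY and 0.249 in TH, so that for SUS both regions had the same sign.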

How the results depend on the processing

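Of 115 alternatives to the 16 main results, at least 12 could not turn. Leaving out the outermost grid columns, which hold no HY spot, gave the same 10 values. A further 2 concern the ratio of the highest to the lowest number of spots, which cannot be below 1. Of the other 103, 97 kept the direction, but some of these could not turn either. Where all sections share a sign, leaving out 1 section cannot change the sign of the mean. That holds for UMIs, genes and percent.rb of HY against TH. From medial to lateral it holds for UMIs, genes with and without matched depth, percent.mito and percent.redcell. The count of 97 is therefore no measure of stability. No test here can pass a threshold, so a p that stayed above it says nothing about stability. In grid rows with spots of all tertiles, the lateral to medial log2 ratio of HY went from -0.54 to -0.35 for UMIs and from -0.35 to -0.21 for genes, and RES turned in both. Without CON, the difference of HY and TH went from log2 0.29 to 0.18 for UMIs, from 0.13 to 0.06 for genes and from -1.43 to -0.377 for percent.mito, which was -2.38 without SUS. The lateral to medial percent.redcell difference went from 0.0626 to 0.444 with means and to 0.0309 without SUS. Division by the median of the section moved UMIs per HY spot to 0.889 for RES to CON and 1.13 for SUS to CON. The difference of HY and TH in genes at matched UMIs (log2 -0.01) was 0.000509 with interior spots only, and leaving out 1 section gave -0.0303 to 0.00521, the latter without SUS. This difference also varied with the window. It was -0.0340 at 8000 to 12000 UMIs (exact sign-flip p = 0.25) and -0.00283 at 12000 to 18000 UMIs (exact sign-flip p = 0.75). For percent.redcell, HY minus TH (-0.0207) was 0.0562 with means, 0.00786 at 10000 to 15000 UMIs and from -0.0356 to 0.00205 with 1 section left out, the latter without SUS. Of the alternatives for percent.mito between sections, chosen after seeing the data, 2 turned the sign: HY for RES minus CON at 10000 to 15000 UMIs (-0.0707), and TH for SUS minus CON after subtracting the change of all other spots (0.249), where the HY value was 4.82 (2.40 for RES). The cause was not tested. Labels give each group 1 section, so no p-value below 0.25 can be had, or 0.5 with 1 section left out.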

Other observations

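In the SUS section, red blood cell genes stood on the thalamic side of the border. The 28 TH spots next to HY had a median percent.redcell of 1.40% (interval 0.285 to 2.34), whereas the 28 HY spots next to TH had 0.225% (0.191 to 0.349). In RES the same rows had 0.0732% and 0.0749%, and in CON 0.00344% and 0.0140%. The 4 HY spots of SUS that touch the cerebral nuclei had 5.44%, and those of RES 0.978%. These rows were chosen after their values were seen, and no test was made.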
